A study of Mus musculus with 2 samples.

Results

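The nuclear genes of oxidative phosphorylation were examined as a group in the adrenal gland, by how open their promoters were to the enzyme DNase I. Members were the protein-coding genes of GENCODE vM21 whose symbols begin with Nduf, Uqcr, Atp5, Cox4i, Cox5, Cox6, Cox7 or Cox8, together with Sdha, Sdhb, Sdhc and Sdhd. This gave 94 gene records with 93 symbols, of 21853 protein-coding genes in all, because Atp5o names 2 records. They comprised 36 subunits and 8 assembly factors of complex I, 4 genes of complex II, 8 of complex III, 20 of complex IV and 18 of complex V. Ndufa4 and Ndufa4l2 carry complex I names but are counted here with complex IV, where the Ndufa4 protein is now placed.

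Oxidative phosphorylation takes place at the inner mitochondrial membrane. Complexes I and II pass electrons from NADH and succinate to ubiquinone, complex III passes them to cytochrome c, and complex IV passes them to oxygen. Complexes I, III and IV pump protons as they do so, and complex V, the ATP synthase, uses the proton gradient to make ATP. Most subunits are encoded in the nucleus, and several subunits of complex IV exist as isoforms, of which some are used in muscle, lung or testis. In the adrenal cortex, mitochondria also hold enzymes of steroid hormone synthesis, which receive electrons from NADPH through ferredoxin reductase and ferredoxin.

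DNase-seq maps the places where DNase I cuts chromatin in nuclei, and footprints are short protected stretches within such places. The tissue was adrenal gland of adult B6CASTF1/J animals, all male and 18 to 20 months old. B6CASTF1/J is a first-generation cross of inbred strains, and the labels name no treatment or genetic change. The 2 libraries, biological replicates 1 and 2, formed 1 group, so no condition was compared. The labels give 1 donor entry for both and do not say whether the tissues came from separate animals, so the spread between replicates covers these samples only.

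Replicate 1 had 98630 peaks and replicate 2 had 118249, with a median width of 180 bp in each. Peak heights are the authors' values of a signal whose scale is not stated in the sources used here, and they came in steps of 0.00531 in replicate 1 and 0.00750 in replicate 2, so a typical peak stood 135 and 100 steps high. Footprints numbered 228557 and 273271. Of the defining genes of adrenal cortex, 8 of 11 had an open promoter, among them Star, Nr5a1 and Cyp11a1, whereas Cyp21a1, Hsd3b1 and Mc2r did not. Of 8 genes of adrenal medulla, 3 did, and Th, Dbh and Pnmt were among those that did not. Lists for other cells also had open members, 5 of 6 for adipocytes, 4 of 6 for muscle, 3 of 4 for endothelium, 2 of 4 for macrophages, 3 of 3 for fibroblasts, and 1 gene each for testis germ cells (of 4), liver (of 3) and kidney (of 3). By the rule given below, 64.5% of all genes were open, so these short lists do not show which cell types were present. Apoh of the liver list and Myl2 of the muscle list had no position listed at a false discovery rate under 0.05 within 1 kb of their representative start. In a whole organ, fewer cells of a type and less opening per cell cannot be told apart.

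Nearly all members were open. A gene was called open where peaks of both libraries overlapped by at least 1 bp in a region within 1 kb of a start of a protein-coding transcript. By this rule 87 of 94 members were open (92.6%, exact Clopper-Pearson 95% interval 85.3 to 97.0%, counting error only), and over all genes the share was 64.5%. The height of a gene is that of its tallest such peak, averaged over both libraries. Open members had a median height of 5.31 and ranged from 1.19 to 10.2, against a median of 3.91 over the 14100 open genes of any kind. Of the 87 open members, 67 (77.0%) stood above that overall median. Other gene families of basic cell functions were also mostly open. All 78 genes of mitochondrial ribosomal proteins were open with a median height of 4.82, 80 of 81 genes of cytosolic ribosomal proteins with 5.73, and 38 of 40 proteasome genes with 5.29.

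**Figure D1:**
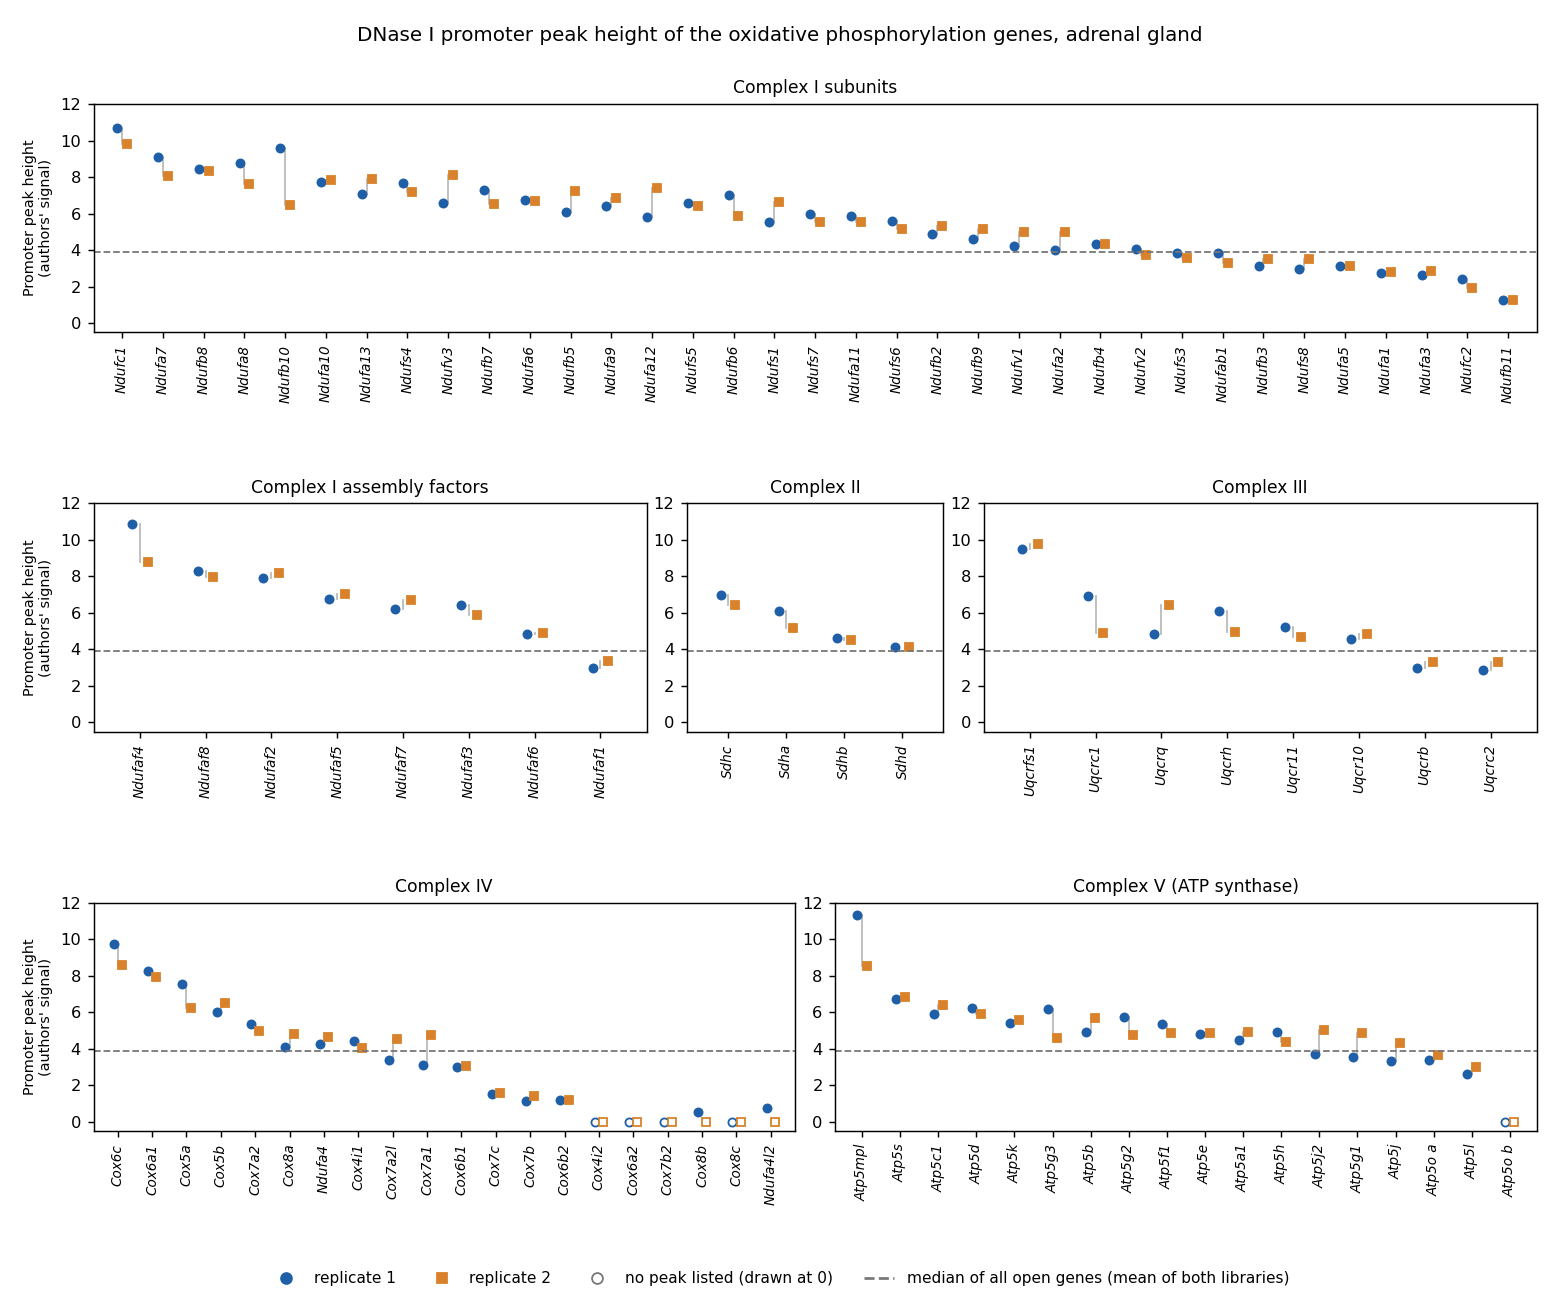
Height of the tallest promoter peak (authors' signal, linear axis) of members, by complex, in replicate 1 (circles) and replicate 2 (squares), with open symbols at 0 where no peak was listed. Complex IV mixes tall peaks with 6 genes that lacked a peak in at least 1 library, and in complex V the same held for Atp5o b, the record ENSMUSG00000116933.

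All 36 subunit genes of complex I were open, with a median height of 5.93. The tallest was Ndufc1, a small accessory subunit of the membrane arm, at 10.7 in replicate 1 and 9.79 in replicate 2. It ranked 211 of the 14100 open genes. Ndufa7 followed with 9.11 and 8.07, and Ndufb8 with 8.45 and 8.33, both again accessory subunits. The lowest were Ndufb11 at 1.29 and 1.25, Ndufc2 at 2.42 and 1.93, and Ndufa3 at 2.62 and 2.88. The region counted for Ndufb11 did not hold its start and was centred at -421.5 bp from it (upstream negative). That start lies 3 bp from the divergent start of Rbm10, so the peak cannot be assigned to either gene. The 3 tallest and 3 lowest genes were picked by mean height, so the gap between them follows from that choice. All 6 of these complex I genes encode accessory subunits.

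Core subunits of complex I that are encoded in the nucleus carry the flavin and the iron-sulfur clusters along which electrons travel. Ndufv1, which binds NADH, had heights of 4.21 and 4.96, and its partner Ndufv2 had 4.04 and 3.71. Ndufs1 had 5.51 and 6.64, and Ndufs7, next to the ubiquinone site, had 5.99 and 5.56. Ndufs3 and Ndufs8 were lower in both libraries, with 3.86 and 3.54 for Ndufs3 and 2.94 and 3.49 for Ndufs8. These genes thus lay inside the range of the accessory genes. Over a list of 22 subunits taken as core across the complexes, every one was open, and their median height was 5.47. The list is not limited to catalytic subunits, since it holds Cox4i1, Cox5a and Cox5b.

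The promoter of Ndufc1 on chromosome 3 shows where both libraries placed footprints. Its open region spanned chr3:51408901-51409100 (GRCm38), and 8 footprints shared by both libraries lay within 1 kb of a start of the gene. The 180 bases before every annotated start are printed below beside those of the complex IV pair Cox8a and Cox8b, because Cox8a was open and Cox8b was not. Sequences are from RefSeq on GRCm38.p6, whose promoter table held 74 of the 93 symbols, and are read 5′ to 3′ along the gene, with capitals for bases under footprints of both libraries.
Ndufc1 chr3:51408989-51409168 minus strand: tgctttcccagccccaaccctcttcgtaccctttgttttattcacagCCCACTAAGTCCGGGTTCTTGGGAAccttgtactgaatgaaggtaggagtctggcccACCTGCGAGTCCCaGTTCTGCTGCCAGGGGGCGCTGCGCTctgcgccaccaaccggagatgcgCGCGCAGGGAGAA
Cox8a chr19:7217617-7217796 minus strand: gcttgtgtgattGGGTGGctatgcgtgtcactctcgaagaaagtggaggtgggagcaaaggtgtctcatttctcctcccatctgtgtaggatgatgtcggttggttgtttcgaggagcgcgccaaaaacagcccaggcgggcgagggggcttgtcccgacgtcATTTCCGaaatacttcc
Cox8b chr7:140900447-140900626 minus strand: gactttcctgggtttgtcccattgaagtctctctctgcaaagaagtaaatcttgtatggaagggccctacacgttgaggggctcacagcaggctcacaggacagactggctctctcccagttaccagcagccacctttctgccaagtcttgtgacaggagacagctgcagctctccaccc
In Ndufc1, 77 of these bases lay under footprints of both libraries. In Cox8a the number was 13, and in Cox8b it was 0.

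All 8 assembly factors of complex I, which help to build the complex but are not part of it, were open, with a median height of 6.68. Ndufaf4 was the tallest at 10.9 and 8.77, ahead of Ndufaf8 at 8.27 and 7.97 and Ndufaf2 at 7.90 and 8.17. Ndufaf1, which binds early intermediates of the membrane arm, was the lowest at 2.98 and 3.36. Between them stood Ndufaf6 at 4.85 and 4.92 and Ndufaf3 at 6.45 and 5.91. Assembly factors that the symbol rule leaves out, such as Surf1 and Sco1 of complex IV, were open in 39 of 40 cases with a median of 5.81. The exception was Sdhaf1, an assembly factor of complex II.

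In complex II, the 4 genes of succinate dehydrogenase, which also works in the citric acid cycle, were all open and all above the median of open genes. Sdhc, a membrane anchor, had 7.0 and 6.46. Sdha, the flavoprotein, had 6.10 and 5.18, and Sdhb, the iron-sulfur subunit, had 4.62 and 4.49. Sdhd, the other anchor, was the lowest at 4.15 and 4.13. The order from Sdhc to Sdhd was the same in both libraries.

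All 8 genes of complex III were open, with a median height of 5.23. Uqcrfs1, which encodes the Rieske iron-sulfur protein, stood far above the rest at 9.49 and 9.76, on rank 321 of all open genes. Uqcrc1 and Uqcrc2 encode the pair of core proteins. Uqcrc1 had 6.94 and 4.87, and Uqcrc2 had the lowest values of the complex, 2.88 and 3.29. Of the small subunits, Uqcrq had 4.86 and 6.43, the latter above Uqcrc1 in that library, Uqcr10 had 4.60 and 4.84, and Uqcrb had 3.01 and 3.33. Replicates differed by more than the gap between neighbours for several of these genes, so the order within the complex below Uqcrfs1 is not fixed by these 2 libraries.

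Complex IV was the least uniform, with 14 of 20 genes open and a median height of 4.35 among those. Cox6c had the tallest promoter peak at 9.72 and 8.58, then Cox6a1 at 8.28 and 7.92 and Cox5a at 7.57 and 6.21. Cox5b, which like Cox5a belongs to the subunits found in all tissues, had 6.02 and 6.52. Cox7c, also widely used, was low at 1.55 and 1.59. Only Cox6b2 and Cox7b were lower among open genes of the complex.

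The genes without an open promoter were almost all isoforms known for use in particular tissues. Of 8 such isoform genes, 2 were open, against 85 of the other 86 members. Cox4i2, a lung isoform, Cox6a2, a heart and skeletal muscle isoform, and Cox7b2 and Cox8c, both known from testis, had no listed peak within 1 kb of a start in either library. At these genes no position within 1 kb of the representative start was listed at a false discovery rate under 0.05 in either library. Their nearest peaks were 1914 bp away for Cox6a2 in both libraries and more than that for the other 3 genes. Cox8b, a heart, muscle and brown fat isoform, had a peak of 0.531 in replicate 1 only. Ndufa4l2, known for its induction in low oxygen, had 0.770 in replicate 1 only. Both of these single peaks lay below the lowest open member.

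Cox6b2, a testis isoform, and Cox7a1, a heart and muscle isoform, were the open ones. Cox6b2 had 1.19 and 1.18, the lowest heights of all open members, and 4 footprints shared by both libraries. Cox7a1 had 3.12 and 4.75 with 1 shared footprint. For muscle markers 4 of 6 were open and for adipocytes 5 of 6, where the share over all genes was 64.5%. The part of such cells in the Cox7a1 peak was not tested. Each widely expressed counterpart was open and taller. Cox6b1 had 3.0 and 3.07, which was 2.56-fold the mean of Cox6b2, and Cox7a2 had 5.37 and 4.99, which was 1.32-fold that of Cox7a1. Cox4i1 had 4.43 and 4.07, Cox6a1 8.28 and 7.92, Cox8a 4.11 and 4.84, and Ndufa4 4.25 and 4.66. Cox7b, the counterpart of Cox7b2, was low at 1.15 and 1.42. For the pair of Cox7a2 and Cox7a1 the heights of replicate 2, 4.99 and 4.75, differed by less than the replicates of Cox7a1 did.

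**Figure D2:**
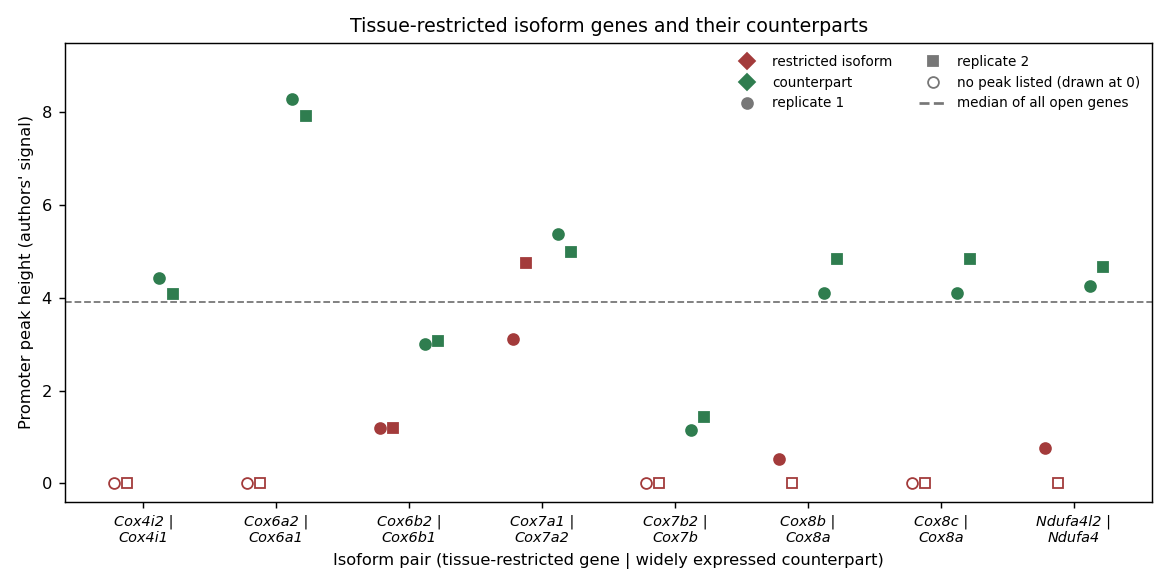
Promoter peak heights (authors' signal) of 8 tissue-restricted isoform genes (red) beside their widely expressed counterparts (green), in replicate 1 (circles) and replicate 2 (squares). Counterparts have a peak in both libraries in every pair, and 6 of the 8 restricted genes lack one in at least 1 library (open symbols at 0).

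Of the 18 records of complex V, 17 were open, with a median height of 5.13. Atp5mpl, a small membrane subunit, was the tallest at 11.3 and 8.55, and its replicates differed more than those of most members. Atp5s, a coupling factor protein, had 6.75 and 6.85. In the catalytic head, Atp5a1 (subunit alpha) had 4.47 and 4.93 and Atp5b (subunit beta) 4.94 and 5.67. The central stalk genes were similar or taller, with 5.88 and 6.42 for Atp5c1 (gamma), 6.21 and 5.89 for Atp5d (delta) and 4.82 and 4.87 for Atp5e (epsilon). These core genes lay between 4.47 and 6.42 in both libraries. The lowest open genes were Atp5l at 2.60 and 3.03, Atp5o (ENSMUSG00000022956), which encodes the stalk protein OSCP, at 3.37 and 3.66, and Atp5j at 3.32 and 4.30, from a peak that is counted for Gabpa too.

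Subunit c, which forms the rotor ring, is encoded by 3 genes for the same mature protein, Atp5g1, Atp5g2 and Atp5g3. Their heights were 3.53 and 4.87 for Atp5g1, 5.73 and 4.75 for Atp5g2 and 6.19 and 4.62 for Atp5g3. Atp5g1 was the lowest of them in replicate 1 and the highest in replicate 2, so no order among them held in both libraries. The representative start of Atp5g2 had no listed position within 1 kb, and its open region lay at another annotated start. The record of complex V without an open promoter was the copy of Atp5o with the identifier ENSMUSG00000116933, whose nearest peaks were 4459 and 4519 bp away.

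Heights of open members correlated between the libraries (Pearson r of log2 heights 0.94 across 87 genes, a description across genes that share both libraries), as did those of all open genes (0.96). The median log2 ratio of replicate 1 over replicate 2 was -0.01 over members and 0.05 over all open genes. Ndufb10 had the highest ratio, 0.56, with heights of 9.58 and 6.49, followed by Uqcrc1 with 0.51 and Atp5g3 with 0.42. Cox7a1 had the lowest ratio, -0.61, then Atp5g1 with -0.47 and Atp5j2 with -0.45. These 6 genes come from 4 complexes. Over all open members, 42 were higher in replicate 1 and 45 in replicate 2. Of the 14100 open genes of any kind, 7906 were higher in replicate 1 and 6194 in replicate 2. The 4 genes of complex II were all higher in replicate 1, the more common direction among open genes. With 1 group of 2 libraries, no test of such differences was possible.

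The 3 members on the X chromosome were among the 7 lowest open members. Ndufb11 had 1.29 and 1.25, from a region that did not hold its start, Cox7b had 1.15 and 1.42, and Ndufa1 had 2.76 and 2.77. Open genes of the X chromosome had a median height of 1.80 and open autosomal genes one of 4.01. The mice were male and carry a single X chromosome. Its part in these heights was not tested.

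Most members have promoters rich in CpG, as is usual for genes used in all cells. Over the 300 bases around the representative start (250 before it, 50 from it on), the median ratio of observed to expected CpG was 0.804 in members and 0.556 in all genes. Among open genes only, it was 0.827 in members and 0.747 in genes of any kind. Mitochondrial ribosomal proteins had 0.822, cytosolic ribosomal proteins 0.855 and proteasome genes 0.789, so a high ratio was not particular to members. All 50 members with a ratio of at least 0.75 were open, and so were 96.9% of all genes in that class. From 0.5 to 0.75 the counts were 26 of 28 members and 88.3% of all genes. Below 0.25 they were 2 of 6 members and 17.9% of all genes. The class from 0.25 to 0.5 held 9 open members of 10, where 50.5% of all genes were open. The 7 members that were not open had a median ratio of 0.213, with Cox8b at 0.115 and Cox6a2 at 0.140. Atp5j2, a subunit f gene, was open with heights of 3.70 and 5.04 at a ratio of 0.104 around its representative start. Heights are taken near any annotated start, so that ratio need not describe the open one.

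**Figure D3:**
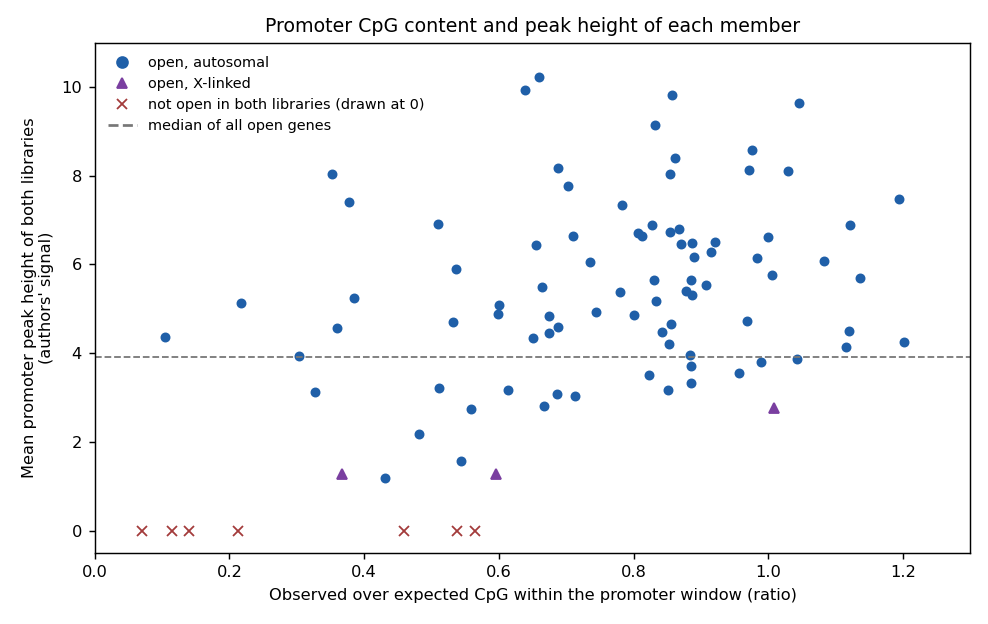
Mean promoter peak height of both libraries (authors' signal) against the observed over expected CpG ratio of the 300-base window for each of the 94 members. The 7 members that were not open (crosses at 0) all have a ratio of 0.564 or less, and the 3 X-linked members (triangles) lie below the dashed median of all open genes.

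Many members had a neighbour that starts close by on the other strand. Such a divergent start of another protein-coding gene lay within 1 kb upstream of 26 members (27.7%), against 8.40% of all genes. The share was 12.5% over open genes of any kind. Ndufs1, a core subunit of complex I, faced Eef1b2, a translation elongation factor, at 3 bp, and Ndufa7 faced Rps28, a ribosomal protein, at 10 bp. Sdhd faced Timm8b, a chaperone of mitochondrial protein import, at 98 bp, Sdha faced Ccdc127 at 29 bp, and Cox4i1 faced Emc8 at 101 bp. Complex II had 3 of its 4 genes in such pairs, complex I assembly factors 4 of 8, complex I 11 of 36, complex III 3 of 8, complex V 3 of 18 and complex IV 2 of 20. Genes of mitochondrial ribosomal proteins had a share of 30.8%, those of cytosolic ribosomal proteins 13.6% and those of the proteasome 17.5%. All 26 members in divergent pairs were open, as were 96.2% of all genes in such pairs. The median height of these 26 members was 5.59, and that of the 61 open members without such a neighbour was 5.24. Over all open genes the median was 5.27 with such a neighbour and 3.63 without. At divergent promoters the peak of a member cannot be told apart from that of its partner. Among the 59 members with no other gene's start within 1 kb, 52 were open (88.1%).

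Each open member had at least 1 footprint within 1 kb of a start in both libraries, 87 of 94 records. The share was 63.1% over all genes but 97.6% over open genes of any kind. Footprints of both libraries that overlap were also found in 87 members, against 59.9% of all genes and 92.7% of open genes. Open members had a median of 5 such shared footprints and open genes of any kind had 4. The number ranged from 1 in Cox7a1 to 13 in Atp5j, with 12 in Ndufa11 and 11 in Ndufs1. The tallest peak counted for Atp5j held none of its starts and lay 552.5 bp (centre) from the nearest. The same peak, 3.32 and 4.30, and 13 shared footprints were also counted for its neighbour Gabpa, so the genes cannot be told apart. At the 7 members that were not open, no footprint was shared.

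The shared footprints of members were concentrated just before the start. In the bin from -40 to -21 bp, 58.6% of open members had bases under footprints of both libraries, and 36.2% of all open genes did. The share of members fell to 32.2% from 20 to 39 bp after the start and was higher again, at 44.8%, from 40 to 59 bp. In that bin the share of all open genes was 19.7%, without a second maximum.

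**Figure D4:**
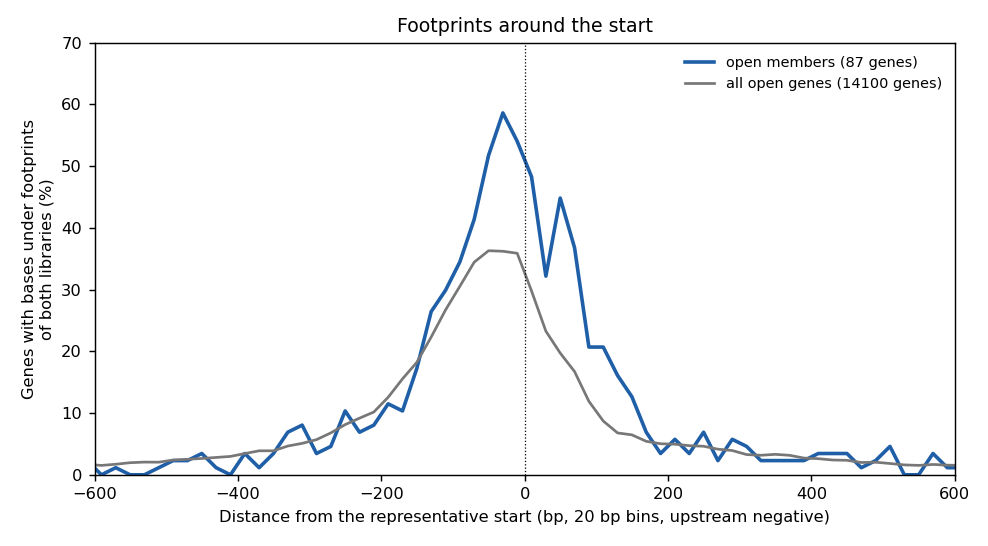
Percent of genes with bases under footprints of both libraries, in 20 bp bins by distance from the representative start (upstream negative), for the 87 open members (blue) and all 14100 open genes (grey). Members peak at 58.6% just upstream of the start and have a second, lower maximum of 44.8% from 40 to 59 bp downstream.

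NRF1, GABP of the ETS family, YY1 and ERR are transcription factors known for regulating nuclear genes of respiration, and SF-1, encoded by Nr5a1, is the steroidogenic factor of the adrenal cortex. Consensus letters were searched on both strands, GCGCANGCG for NRF1, CCGGAAGT for ETS factors, AANATGGCG for YY1 and AAGGTCA for the single site that ERR and NR5A1 proteins share. In the 300-base window, NRF1 letters were found in 16 members (17.0%, against 8.63% of all genes and 12.4% of open genes). In 13 members (13.8%) a match lay under a footprint in both libraries, against 6.26% of all genes and 9.70% of open genes. That share was 15.4% in mitochondrial ribosomal proteins, 15.0% in proteasome genes and 7.41% in cytosolic ribosomal proteins, so it was not particular to members. YY1 letters were found in 7 members (7.45%, against 3.15% of all genes and 4.55% of open genes). NR5A1/ERR letters were found in 10 members (10.6%, against 3.92% of all genes). The NR5A1/ERR share was 10.0% in proteasome genes, 5.13% in mitochondrial ribosomal proteins and 4.94% in cytosolic ribosomal proteins. In this window it thus did not set members apart from proteasome genes. ETS letters were found in 6 members, a share of 6.38% that lay between the 5.03% of all genes and the 7.33% of open genes. Under footprints of both libraries their share was 2.13% in members and 2.40% in all genes. SP/KLF letters, GGGGCGGGG, were found in 10 members (10.6%), against 15.5% of all genes. Cox4i1 nevertheless had 5 such matches under footprints of both libraries.

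NRF1 matches of members were mostly footprinted. Of 25 matches, overlapping ones on both strands included, 21 lay under a footprint in both libraries (84.0%). Among all genes, closed promoters included, 74.1% of 2607 matches did. By promoter, 13 of 16 open members with a match had one under such a footprint, and 1368 of 1748 open genes of any kind did. Sdha had 3 footprinted matches within 100 bp, and Cox6a1 had them at 2 places, the first of which matches on both strands. Each site is shown with 10 bases to either side and with the match in capitals, from RefSeq on GRCm38.p6.
Sdha chr13:74350320-74350348 minus strand: cgtttacaggGCGCAGGCGcaccaccact
Sdha chr13:74350277-74350305 minus strand: ggggcgtgttGCGCAGGCGcagaatcttc
Sdha chr13:74350232-74350260 minus strand: gcgactcggtGCGCAAGCGcagtctgtcg
Cox6a1 chr5:115349102-115349130 minus strand: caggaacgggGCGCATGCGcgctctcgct
Cox6a1 chr5:115349057-115349085 minus strand: cggataaagtGCGCAGGCGctggagttcc
The other members with a footprinted NRF1 match in this window were Ndufa8, Ndufa11, Ndufb4, Ndufs5, Ndufaf4, Ndufaf5, Sdhd, Uqcr11, Atp5h, Atp5l and Atp5mpl.

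With the window widened to 250 bases on each side, the counts of YY1 and NR5A1/ERR letters rose most. YY1 letters were then found in 21 members (22.3%), against 5.39% of all genes and 7.27% of open genes. Complex I held 13 of these 21, and complex IV held 0. Mitochondrial ribosomal proteins had a share of 23.1%, so the share of members was not particular to them. A YY1 match on the gene's strand contains ATG. In 13 of the 16 such matches of members (81.2%), that ATG was an annotated start codon of the gene, compared with 51.5% of 783 such matches of all genes. The matches lay in 13 genes, which is 13.8% of members, against 1.84% of all genes and 2.79% of open genes. That share was 16.7% in mitochondrial ribosomal proteins, 12.5% in proteasome genes and 7.41% in cytosolic ribosomal proteins. Start codon matches were thus not particular to members. The 13 member genes include Ndufa6, Ndufa7, Ndufa9, Ndufc1, Ndufs4, Ndufs6 and Ndufs7 of complex I, Sdhb of complex II and Uqcrc1 of complex III. A start codon lay within 250 bases after the representative start in 73.4% of members and 51.2% of all genes, so the window reached coding sequence more often in members. Footprints of both libraries covered YY1 letters in 7 members (7.45%), against 1.65% of all genes and 2.56% of open genes. The share was higher in mitochondrial ribosomal proteins (15.4%) and proteasome genes (12.5%). The examples show the same 9 letters around the start codon in 3 complex I genes.
Ndufs7 chr10:80249463-80249491 plus strand: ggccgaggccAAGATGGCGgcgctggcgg
Ndufc1 chr3:51408915-51408943 minus strand: cctgcggaacAAGATGGCGccgtccgtag
Ndufa9 chr6:126849097-126849125 minus strand: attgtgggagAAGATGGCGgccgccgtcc
The match of Ndufs7 lay under a footprint in both libraries, those of Ndufc1 and Ndufa9 in replicate 2 only.

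NR5A1/ERR letters were found in 23 members (24.5%) in the wider window, against 6.26% of all genes and 4.84% of open genes. The wider window adds only bases after the start, where coding sequence was reached more often in members. It raised the members with a match from 10 to 23, but those with a footprinted match only from 3 to 4. The shares were 12.8% in mitochondrial ribosomal proteins, 4.94% in cytosolic ribosomal proteins and 10.0% in proteasome genes. Complex V held 7 of the 23 and complex I held 10. Few were footprinted. In 4 members, Ndufs1, Uqcrq, Atp5l and Atp5k, a match lay under a footprint of both libraries (4.26%, against 0.215% of all genes). The sites of both ATP synthase genes are printed because complex V had the highest share of these letters among the complexes with more than 4 genes, 38.9%.
Atp5l chr9:44920739-44920765 minus strand: aggggcagccTGACCTTggaaatgggg
Atp5k chr5:108434360-108434386 minus strand: ttccggcgcgAAGGTCAcggacaaaat
In Atp5l the letters run on the opposite strand, so the reverse complement is capitalised. A match of letters says nothing about which of the proteins, if any, was bound.

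**Figure D5:**
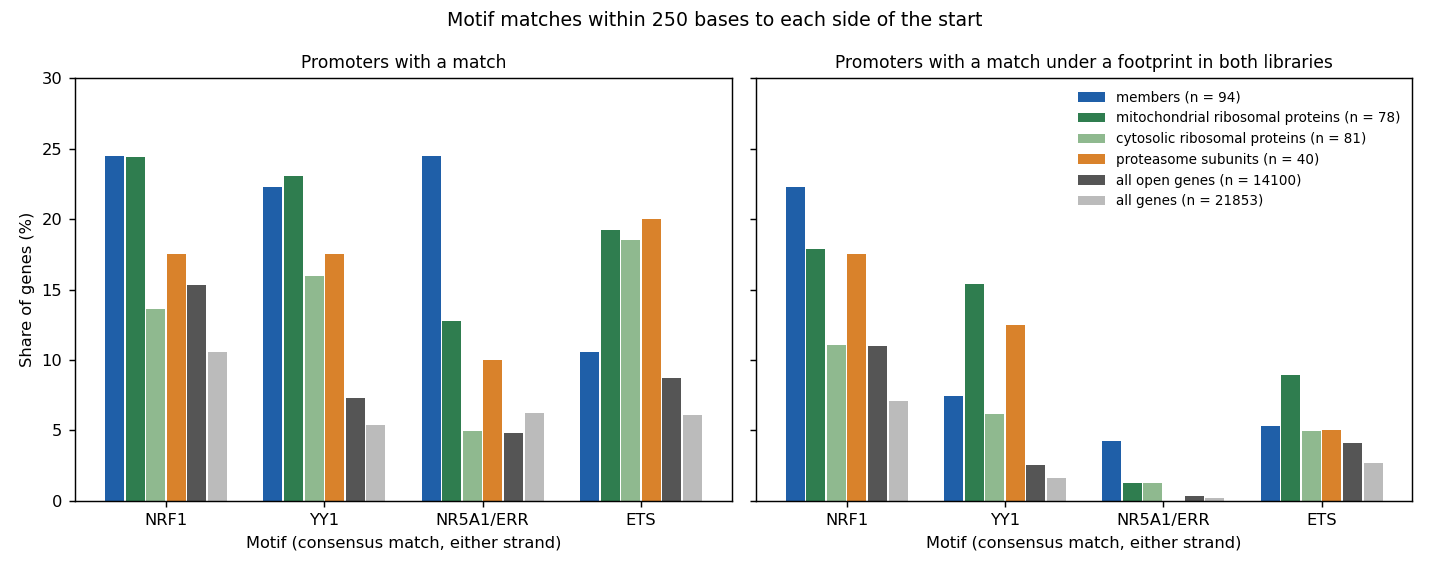
Share of genes (%) with a consensus match within 250 bases to each side of the representative start (left), and with a match under a footprint in both libraries (right), for members and comparison sets. Members reach 24.5% for NRF1, 22.3% for YY1 and 24.5% for NR5A1/ERR, and the last of these is 12.8% or less in each comparison set shown.

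Electron carriers and related enzymes outside the symbol rule were open in 16 of 17 cases, with a median height of 5.0. Cycs, the somatic cytochrome c, was the tallest at 7.41 and 9.25, whereas Cyct, its testis form, had no peak in either library. Of the genes for nuclear and mitochondrial regulators of these pathways, 27 of 27 were open, with a median of 4.89. Esrra, which encodes ERR alpha, had the tallest promoter of that list, at 9.25 and 11, and Nrf1 had 6.54 and 4.74. The genes of the coactivator Ppargc1a, 0.834 and 1.52, and of Esrrb, 0.584 and 0.682, were among the lowest.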

How the data were processed

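DNase-seq of 2 adrenal gland libraries was used. Per the file index text, the authors derived peaks, footprints and false discovery rates library by library from filtered mm10 alignments. The sources used here do not name the aligner or the callers. Peak heights deposited by the authors are a signal, and the longer of 2 deposited peak lists was used. Footprints carry a score deposited by the authors that is the same in every row and had no use. False discovery rates (q-values) deposited by the authors are listed only under 0.05.

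Coordinates are 1-based on GRCm38, with GENCODE vM21 (54361 starts of protein-coding transcripts) and RefSeq sequence of the reference allele. The representative start is that of the transcript ranked first by APPRIS, support level and number. Nothing was fitted, since there is 1 group, and values are counts, medians and ranges beside the same over all genes. Intervals are exact Clopper-Pearson. Named are the 3 tallest and 3 lowest open members of each complex, members not open, isoform pairs, core subunits and the 3 most extreme replicate ratios in each direction; others are named as examples after their values were seen. Members and lists were chosen with earlier results of these data known. Of 137 list symbols, Coa1 did not match. Scripts (Python 3.11.15, numpy 2.4.6, scipy 1.17.1) were tested on simulated data. Among members without a matched RefSeq promoter were Atp5a1, Atp5mpl, Cox4i1, Cox6c, Ndufs1, Sdhc and Uqcrq. Some genes that the lists count are not reported here by name, and the plot of heights by complex leaves them out.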

Additional observations from a re-analysis of the deposited data

How the results depend on the processing

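The count of open members was 85 to 91 over the alternatives of peak list, window, start, overlap and library, 52 of 59 after leaving out members with another gene's start within 1 kb, where fewer members are counted by construction, 79 of 86 without assembly factors, and 84 of 91 without the 3 X-linked members, an alternative chosen after seeing the data. The count of open tissue-restricted isoforms was 5 with a window of 5 kb, which adds Cox6a2, Cox8b and Ndufa4l2, and lay between 2 and 4 when replicate 1 or replicate 2 was left out, since Cox8b and Ndufa4l2 had a peak in replicate 1 only. The median height of open members was 5.91 when heights of all promoter peaks were summed, and 5.04 to 5.37 with 1 library left out; the median of all open genes moved with it, to 5.04 for sums. A window of 500 bp lost Atp5f1. Widening the motif window, which adds bases by construction, moved YY1 from 7 to 21 members, NR5A1/ERR from 10 to 23 and ETS from 6 to 10. Under footprints it moved NRF1 from 13 to 21, YY1 from 3 to 7 and ETS from 2 to 5. Asking for the match to lie wholly inside the footprint left 11 for NRF1 and 2 for NR5A1/ERR, but 1 for YY1, 1 for ETS, 2 instead of 7 for NFY and 0 instead of 2 for ZNF143. The start codon count, the X chromosome and the CpG classes were examined after seeing the data. No paired analysis was possible because there is only 1 group. Few footprinted matches per motif limit what the motif counts show, and how alleles of the hybrid differ from the reference was not examined.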

Other observations

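Esrrg was open at a low height, 1.33 in replicate 1 and 1.21 in replicate 2, with 13 and 14 footprints within 1 kb of a start. Surf1, an assembly factor of complex IV, was open at 2.52 and 2.37 without a footprint in replicate 1.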
